A study of Mus musculus with 6 samples.

Results

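The 10 core glycolytic enzymes Hk2, Pfkp, Aldoa, Tpi1, Gapdh, Pgk1, Pgam1, Eno1, Pkm and Ldha were followed in RNA of mouse CD4+ T cells. They were taken by gene symbol from a table of read counts with 13177 RefSeq transcript accessions, in which each of the 10 symbols matched exactly 1 accession. The 6 libraries form 2 groups of 3, controls at 0 h and cells collected 8 h after transfection with a synthetic miR-155 oligonucleotide. The treatment label of the controls names the same oligonucleotide, and cells held for 8 h without it are not among the samples, so time, transfection and oligonucleotide cannot be told apart. Per the series' design text the cells were purified on magnetic beads as CD4+ T cells, while the descriptions of the 8 h samples read CD5+. The sources used here give no strain, age or sex of the mice and do not say whether replicates were separate animals or cultures. The p-values therefore measure the spread between these libraries, which may be technical.

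Glycolysis turns glucose into pyruvate in the cytosol, first spending ATP to phosphorylate and split the sugar and then regaining it as the trioses are oxidised. Lactate dehydrogenase reduces pyruvate to lactate and returns NAD+ to the pathway. Resting CD4+ T cells rely largely on mitochondrial respiration, and activation raises glucose uptake and lactate output, with Myc and the hypoxia-inducible factor Hif1a among the known inducers of these genes. miR-155, a microRNA of activated lymphocytes, pairs through its seed with sites in 3' untranslated regions (3' UTRs).

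The mature strands of mouse miR-155 (RefSeq, GRCm38.p6) are shown because the oligonucleotide was the agent of the study. Capitals mark the seed, bases 2 to 8.
miR-155-5p (chr16:84714143-84714165, plus strand): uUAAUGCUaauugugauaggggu
miR-155-3p (chr16:84714182-84714202, plus strand): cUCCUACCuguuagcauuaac
None of the 10 enzymes has a 7-base seed match in the 3' UTR of the transcript that the table counts, as annotated in GENCODE M21. The search covered AGCATTA and GCATTAA for the 5p strand and GGTAGGA for the 3p strand, in UTRs of 179 bases (Gapdh) to 2285 bases (Hk2). Among all 12728 accessions with a searched 3' UTR, 10.6% held a 5p match and 6.02% a 3p match. The absence says only that these letters are not in these windows.

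Library totals ran from 4564010 to 13675127 counts, and the 100 most abundant accessions took 57.7% to 68.6% of a library. Levels are given as CPM, which are counts scaled to the library total. Of 11 matched markers of CD4+ T cells, Cd3d, Cd3e, Cd3g, Cd5, Cd2, Lck and Lat had 77 to 162085 counts in a library and Cd28 9 to 124. Cd4, which defines the purified cells, had 5 to 10 counts in each library, Cd247 3 to 16 and Zap70 2 to 17. Replicates differed widely throughout the table. Among the 1065 accessions that averaged 1000 counts or more, the highest library of a group exceeded the lowest by a median of 25.8-fold in controls (1052 accessions without a 0) and 24.6-fold at 8 h (1058 accessions).

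The enzymes fell into 2 sets by level, a division made after their values were seen. Eno1, Pgam1, Ldha, Pkm and Hk2 together held at least 99.8% of the counts on the 10 enzymes in every library. Tpi1, Pgk1, Pfkp, Aldoa and Gapdh had at most 27 counts in any library, as did 3083 of the 13177 accessions (23.4%). Per kilobase of transcript, mean levels over the 6 libraries followed the order Eno1 (4169 CPM per kb), Pgam1 (1661.5), Ldha (1448.9), Pkm (773.5), Hk2 (43.8), Tpi1 (1.13), Pgk1 (0.682), Pfkp (0.396), Aldoa (0.292) and Gapdh (0.282). The first 4 overlapped one another in their library ranges, and so did the last 5. The range of Hk2, 2.31 to 90.6 CPM per kb, overlapped with those of Pgam1, Ldha and Pkm but not with that of Eno1, and no library of the last 5 reached it. Eno1 lay above 99.7% of the 12801 accessions with a known length on this scale, and Gapdh above 17.8% of them. The enzymes act in 1 chain, and in the same libraries Gapdh had 1 to 11 counts while Eno1 had 5834 to 157558. How reads were assigned to rows is not stated in the labels or the file, which limits every level here.

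**Figure D1:**
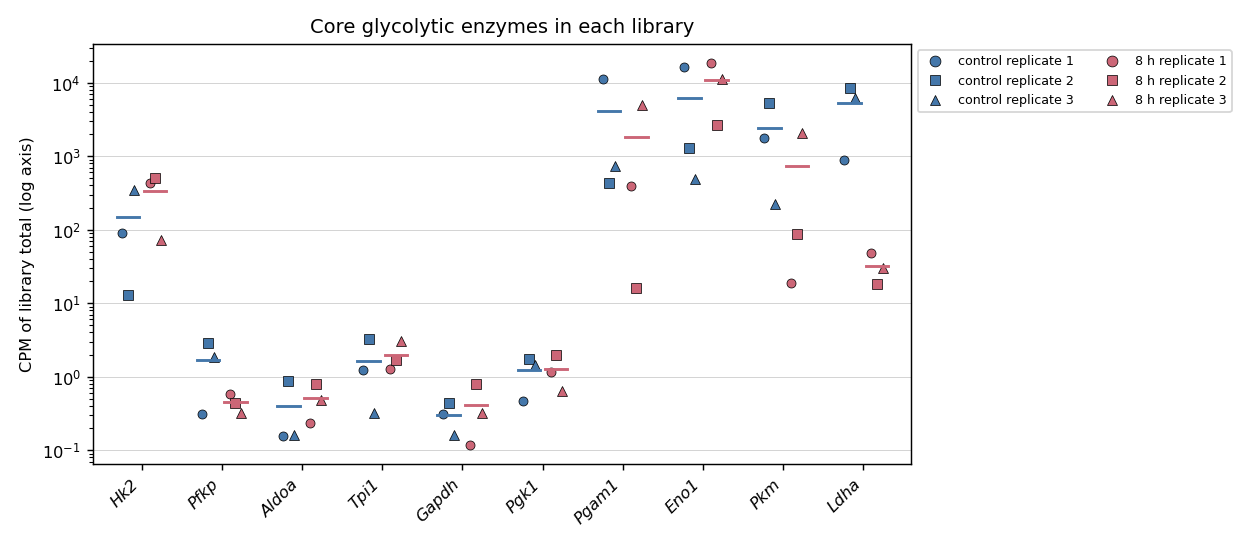
CPM of the 10 enzymes on a log axis, 1 point per library, with control libraries left and 8 h libraries right of each gene and bars at the group means (n = 3 each). Ldha is the gene whose 8 h points, 18.4 to 48.4 CPM, all lie under its control points, 887.1 to 8542.5 CPM, and 5 enzymes lie near 1 CPM in every library.

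Each 8 h library lay below each control for Ldha, which was the only one of the 10 enzymes whose groups did not overlap. The gene encodes the A subunit of lactate dehydrogenase and lies on chromosome 7 (46842274 to 46855627, GRCm38). The controls held 5726, 38988 and 76923 counts, and the 8 h libraries 413, 252 and 190. In CPM these were 887.1, 8542.5 and 6252.2 in controls 1 to 3 and 48.4, 18.4 and 30.4 at 8 h. The lowest control thus stood 18.3-fold above the highest 8 h library. Group means were 5227 ± 3929 CPM in the controls against 32.4 ± 15.1 CPM at 8 h (SD, n = 3 each). The spread was small at 8 h, where the highest library exceeded the lowest 2.63-fold, against 9.63-fold in the controls.

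In edgeR's quasi-likelihood test the log2 fold change of Ldha was -7.38 ± 3.03 (SE), with an unadjusted p of 0.0148 and an adjusted p of 0.502, so Ldha did not pass. DESeq2's Wald test, an alternative, gave -7.38 ± 1.35 (SE) with an adjusted p of 6.21e-05 and called it, and over all alternatives the adjusted p ran from that value to 0.998. The two-sided exact permutation p of its CPM was 0.1, the smallest that 3 against 3 libraries allow. Groups of 3 that do not overlap always give this value, so it adds nothing to the non-overlap. Of the 7 enzymes with enough counts to be tested, edgeR called 0 at an adjusted p under 0.05, as it did for 0% of the 8308 accessions tested. At an unadjusted p under 0.05 it gave 1 of 7, against 8.53% of all tested. DESeq2 called 1 of the 4 enzymes for which it gave an adjusted p, against 6.06% of accessions with one. Tpi1, Pgk1 and Pgam1 had no DESeq2 adjusted p, and Pgam1 had no unadjusted DESeq2 p either. Non-overlapping groups were found for 1 of 7, in a table where 10.9% of tested accessions had them, so the count over the enzymes is near the background.

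Left out in turn, no single library moved the log2 fold change of Ldha beyond -7.88 to -7.02. In these edgeR fits its adjusted p ran from 0.447 to 0.637. Without 8 h replicate 2 or 3, 0 of the tested enzymes had an unadjusted edgeR p under 0.05. Only 10 of the 8308 tested accessions had a log2 fold change as low as or lower than that of Ldha, and the median over all tested was 0.06. In the same comparison, the summed CPM of 10 markers of cytotoxic and natural killer cells lay between 1462.1 and 4189.3 in controls and between 265.2 and 421.8 at 8 h. All 10 were tested, of which 6 had lower values at 8 h and 4 higher ones, against 4045 lower and 4263 higher over all tested accessions. DESeq2 called 3 of the 10, against the 6.06% given above, and edgeR called 0. None was at 0 in all libraries and 1 was at 0 in some. Groups did not overlap for 2 of the 10, both lower at 8 h, against 10.9% of all tested accessions. One was Gzma, which encodes a granule protease. It had 66.6, 238.8 and 821.2 CPM in controls 1 to 3 against 46.6, 22.4 and 10.4 CPM at 8 h. The sum rested on different genes in different controls. Gzmb had 3929.9 CPM in control replicate 1 but 21.6 CPM in control replicate 3, where Nkg7 had 1501.9 CPM. Both Gzmb and Nkg7 overlapped between the groups. The summed CPM of 7 erythroid and platelet markers was also lower, at 26.1 to 136.4 in controls and 7.05 to 19.7 at 8 h. Of the 7, 0 were at 0 in all libraries and 3 at 0 in some. The highest sum, in control replicate 3, held 68.2 CPM of Pf4, which had 0 counts in the other controls. Of these markers 4 were tested, all lower at 8 h, against 4045 lower and 4263 higher over all tested accessions. Groups did not overlap for 1 of the 4, against 10.9% of all tested. In edgeR 0 of the 4 were called, and in DESeq2 0 of the 3 with an adjusted p, against 6.06%. The marker without overlap had no DESeq2 adjusted p. For B cell markers the summed CPM overlapped between the groups, with 3 of 6 tested higher and 3 lower at 8 h. Groups did not overlap for 1 of the 6, against 10.9% of all tested. It was Ms4a1, with 2.44 to 3.29 CPM in controls and 33.2 to 42 CPM at 8 h. DESeq2 called only this 1 of the 6 (adjusted p = 0.0173), against 6.06%, and edgeR did not call it (adjusted p = 0.609). The part of the cells marked by these lists in the Ldha result was not tested. In bulk RNA, fewer cells of a type and less RNA per cell cannot be told apart.

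The table counts Ldha through accession NM_001136069, whose transcript starts 1278 bases downstream of the other Ldha start in RefSeq's promoter table. The 300 bases around both starts (RefSeq, GRCm38.p6, plus strand, from 250 bases before the start to 50 bases from it onward) are shown because the enzyme with the widest group difference is counted through the downstream one. Capitals mark ACGTG and GCGTG on either strand, the letters at the core of sites bound by hypoxia-inducible factors. Matches to ACGTG inside CACGTG, the E-box bound by Myc, overlap with it.
Ldha upstream start (chr7:46845554-46845853): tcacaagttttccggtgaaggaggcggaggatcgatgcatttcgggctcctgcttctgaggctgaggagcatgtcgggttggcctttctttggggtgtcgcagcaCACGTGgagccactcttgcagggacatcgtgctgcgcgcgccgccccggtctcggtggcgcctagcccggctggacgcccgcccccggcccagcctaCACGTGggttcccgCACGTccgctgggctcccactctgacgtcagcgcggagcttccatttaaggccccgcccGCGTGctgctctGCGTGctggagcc
Ldha downstream start (chr7:46846832-46847131): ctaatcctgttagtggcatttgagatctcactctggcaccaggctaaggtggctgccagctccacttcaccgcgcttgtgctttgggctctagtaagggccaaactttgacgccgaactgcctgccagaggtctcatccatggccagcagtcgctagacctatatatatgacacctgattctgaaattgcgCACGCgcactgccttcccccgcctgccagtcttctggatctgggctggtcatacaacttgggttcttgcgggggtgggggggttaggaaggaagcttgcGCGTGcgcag
The upstream window held 5 matches to ACGTG, of which 4 lay in 2 copies of CACGTG, and 2 to GCGTG. The downstream window held 0 matches to ACGTG and 2 to GCGTG. Among 32851 RefSeq promoters of this length, 19.6% held ACGTG, 32.4% GCGTG and 7.15% CACGTG. RefSeq lists 3 transcripts of Ldha, and the span of the gene begins upstream of both windows. Whether reads from the other transcripts were placed on this row is not stated, so the values cannot be assigned to a start site.

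Hexokinase and phosphofructokinase commit glucose to the pathway. Hk2, the hexokinase isozyme induced by growth signals (chromosome 6, 82725025 to 82774454), had 89.4, 12.7 and 346.4 CPM in controls 1 to 3 against 428.1, 499.4 and 72.5 CPM at 8 h. Replicates 1 and 2 at 8 h were its highest libraries and replicate 3 lay among the controls. Means were 149.5 ± 174.8 CPM and 333.4 ± 228.7 CPM (SD, n = 3 each), and the log2 fold change was 1.0 ± 1.98 (SE, edgeR adjusted p = 0.919). It was 2.57 when control replicate 3 was left out, 0.44 when control replicate 2 was and 0.53 when 8 h replicate 2 was, and 1.87 with replicate number as a block. Pfkp, the platelet-type phosphofructokinase, had 2, 13 and 23 counts in the controls against 5, 6 and 2 at 8 h. Its counts were too low for testing.

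Aldolase and triose phosphate isomerase split and interconvert the sugar phosphates. Aldoa had 1, 4 and 2 counts in the controls against 2, 11 and 3 at 8 h, and was not tested. Tpi1 had 8, 15 and 4 counts in the controls against 11, 23 and 19 at 8 h. In CPM the Tpi1 groups overlapped, at 0.325 to 3.29 in controls and 1.29 to 3.04 at 8 h. The log2 fold change was 0.29 ± 1.17 (SE, edgeR adjusted p = 0.964). That value was 1.14 with control replicate 2 left out, -0.17 with control replicate 3 left out and -0.0023 with 8 h replicate 3 left out, so its sign rests on single libraries.

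Gapdh and Pgk1 carry out the oxidation of the triose and the first regain of ATP. Gapdh, often used as a reference gene because its transcript is abundant in most cells, had 2, 2 and 2 counts in the controls against 1, 11 and 2 at 8 h. Its CPM ran from 0.117 to 0.804, and it was not tested. Pgk1 had 3, 8 and 18 counts in the controls against 10, 27 and 4 at 8 h, with means of 1.23 ± 0.676 CPM and 1.26 ± 0.671 CPM (SD, n = 3 each). It had a log2 fold change of 0.01 ± 1.09 (SE, edgeR adjusted p = 0.998), the smallest of the 7 tested. GENCODE M21 lists pseudogenes named after Aldoa, Tpi1, Gapdh, Pgk1, Pgam1 and Ldha, and the labels do not state how reads shared with such copies were counted. Both sets by level hold genes with such copies. Only names made from a gene's symbol were searched, so copies under other names may be missing for any of the 10 enzymes.

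Pgam1 and Eno1 shift the phosphate and remove water to form phosphoenolpyruvate. Eno1, the enolase of most tissues (chromosome 4, 150236708 to 150248879), was the most abundant member and ranked 15 of 13177 accessions by mean CPM. It had 16528.5, 1278.3 and 492.3 CPM in controls 1 to 3 against 18456.1, 2685.8 and 11261.9 CPM at 8 h. Control replicate 1 lay within the 8 h range while the other controls lay under it. Means were 6100 ± 9040 CPM and 10801 ± 7895 CPM (SD, n = 3 each), and the log2 fold change was 0.60 ± 2.44 (SE, edgeR adjusted p = 0.965). It was 3.60 with control replicate 1 left out, 0.11 and 0.059 with controls 2 and 3 left out in turn, and -0.074 with 8 h replicate 1 left out. With replicate number as a block it was 1.71, and 1.06 with 8 h replicate 2 left out.

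Pgam1, the phosphoglycerate mutase of most tissues (chromosome 19, 41911871 to 41918665), had 71947, 1945 and 9076 counts in the controls against 3383, 217 and 31051 at 8 h. Control replicate 1 and 8 h replicate 3 were its high libraries, and the other 4 lay at 737.7 CPM or less. The highest 8 h library exceeded the lowest 313.4-fold, against a median of 24.6-fold over the abundant accessions at 8 h. Its log2 fold change was -1.52 ± 2.36 (SE, edgeR adjusted p = 0.890). It turned to 1.41 with control replicate 1 left out, and was -4.49 and -0.92 with 8 h replicates 3 and 2 left out in turn, and -3.27 with replicate number as a block.

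Pkm, pyruvate kinase, makes pyruvate and ATP in the last step before lactate dehydrogenase (chromosome 9, 59656576 to 59679372). It had 1777, 5268 and 226.1 CPM in controls 1 to 3 against 19.0, 85.9 and 2095 CPM at 8 h. Replicates 1 and 2 at 8 h lay under every control, whereas replicate 3 lay among them. Means were 2424 ± 2583 CPM and 733.4 ± 1180 CPM (SD, n = 3 each), and the log2 fold change was -1.82 ± 2.29 (SE, edgeR adjusted p = 0.851). Without 8 h replicate 3 it was -5.39, without control replicate 2 -0.77, and with replicate number as a block -4.64. At 8 h replicate 3 was therefore the high library of both Pgam1 and Pkm, and not of Ldha, Eno1 or Hk2.

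Pkm makes 2 proteins through a choice between neighbouring exons. The upstream exon gives the M1 form of muscle and brain, and the downstream one the M2 form, which predominates in proliferating cells. The row of the table, NM_001253883, is the transcript with the upstream exon. Both exons (GENCODE M21, GRCm38, plus strand, 167 bases each) are shown because the row holds the upstream one and the M2 transcript, NM_011099, the downstream one.
Upstream exon of NM_001253883 (chr9:59675029-59675195): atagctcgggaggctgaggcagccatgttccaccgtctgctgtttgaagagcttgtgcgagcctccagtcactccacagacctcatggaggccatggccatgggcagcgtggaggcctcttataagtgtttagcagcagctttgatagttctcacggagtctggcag
Downstream exon of NM_011099 (chr9:59675568-59675734): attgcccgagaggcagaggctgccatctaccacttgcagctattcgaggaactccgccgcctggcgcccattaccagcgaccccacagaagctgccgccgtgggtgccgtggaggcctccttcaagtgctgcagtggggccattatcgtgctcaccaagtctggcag
The M2 transcript has no row of its own in the table, so the Pkm counts cannot be assigned to a form.

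**Figure D2:**
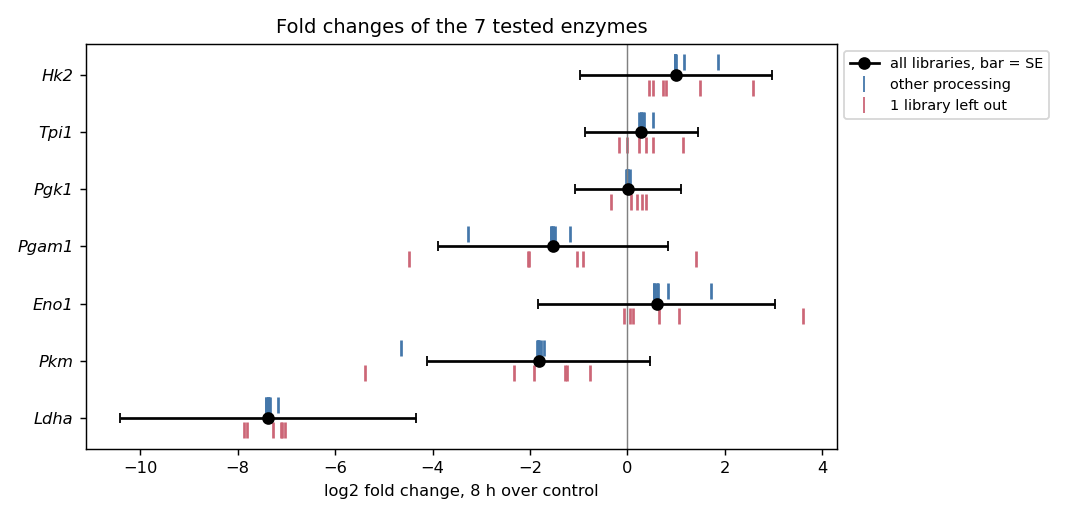
Log2 fold changes of the 7 tested enzymes, 8 h over control, with black points and SE bars from edgeR on all libraries, blue ticks for other processing and red ticks for fits without 1 library. Ldha stays between -7.88 and -7.02, while the red ticks of Eno1, Pgam1, Tpi1 and Pgk1 lie on both sides of 0.

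The enzymes did not keep fixed proportions between libraries. Together they took 3.04%, 1.55% and 0.806% of the counts of controls 1 to 3 and 1.94%, 0.331% and 1.84% of the 8 h libraries, with 95% Wilson intervals of at most ± 0.013 percentage points, which cover counting error only. The group ranges overlapped, with means of 1.80 ± 1.14% and 1.37 ± 0.901% (SD, n = 3 each). The difference of -0.431 percentage points became 0.19 without control replicate 1 and 0.0886 without 8 h replicate 2, and -0.901 without Eno1. Eno1 supplied 95.4%, 81.1% and 61.1% of these counts at 8 h. In the controls Eno1 led in replicate 1 with 54.3%, and Ldha led in replicates 2 and 3 with 55.0% and 77.6%.

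A ratio of 2 genes within a library does not depend on the scaling of libraries. The count ratio of Eno1 to Ldha was 18.6, 0.150 and 0.0787 in controls and 381.5, 145.8 and 370.1 at 8 h, without overlap. That of Hk2 to Ldha was 0.101, 0.00149 and 0.0554 in controls and 8.85, 27.1 and 2.38 at 8 h, also without overlap. The ratios of Pgam1 to Ldha and of Pkm to Ldha overlapped between the groups, with 0.0499 to 12.6 and 0.0362 to 2.0 in controls and 0.861 to 163.4 and 0.392 to 68.9 at 8 h. These ratios share the values of Ldha and are no further evidence beyond it.

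**Figure D3:**
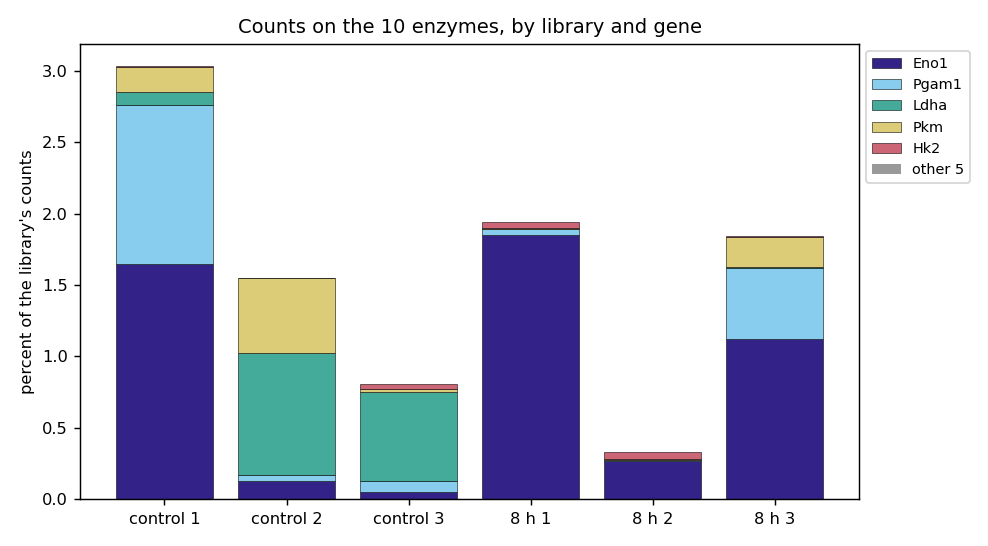
Percent of each library's counts on the 10 enzymes, stacked by gene, with 1 bar per library and no error bars since each bar is a single library. Eno1 makes up most of the 8 h bars, Ldha most of the bars of control replicates 2 and 3, and the grey share of the other 5 enzymes is too small to see.

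Among the accessions whose level followed Eno1 most closely over the 6 libraries were Dnajb11 (Pearson's r of log2 CPM plus 1 = 0.972) and Clptm1 (0.966). Of the 8307 accessions compared, 8 had an r over 0.95. With 6 points these are descriptions of accessions that share each library's depth and preparation, and carry no test. By the same measure r with Eno1 was 0.41 for Pgam1, 0.27 for Tpi1, 0.06 for Hk2, -0.12 for Pkm, -0.62 for Ldha and -0.71 for Pgk1, the 6 other tested enzymes.

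Around the core enzymes, 6 lists with 70 other genes of glucose metabolism were read from the same fit. Of these 59 were matched, 35 had enough counts to be tested, and edgeR called 0. At an unadjusted p under 0.05 there were 2 of the 35, against 8.53% of all tested. Values at 8 h were higher for 14 and lower for 21, with a median log2 fold change of -0.59 against 0.06 over all tested. Groups did not overlap for 2 of the 35, Mpc1 and Pgls, again against 10.9% in the table. DESeq2 called 1 of the 33 with an adjusted p, against 6.06% of all accessions with one, so this count is no result about the lists. The gene was Eno3, the muscle enolase, which had 14, 153 and 60 counts in the controls against 4696, 88 and 1808 at 8 h (adjusted p = 0.0476, against 0.553 in edgeR).

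Among 10 tested isozymes, 5 had higher and 5 lower values at 8 h (median log2 fold change 0.17). Hk1, the constitutive hexokinase, had 3 to 45 counts in any library, with a log2 fold change of 0.99 ± 1.35 (SE, edgeR adjusted p = 0.867). Pfkl, the liver-type phosphofructokinase, had 2 to 33 counts and one of 0.69 ± 1.17 (SE, edgeR adjusted p = 0.898). Gpi1, the isomerase between hexokinase and phosphofructokinase, had 2 to 5 counts, and Ldhb, the other main subunit of lactate dehydrogenase, 1 to 4 counts, so neither was tested. Aldoc, the brain aldolase, had 6, 6 and 8 counts in the controls against 9, 56 and 65 at 8 h, and was also not tested.

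Of the transporters, 5 were tested, 3 with higher and 2 with lower values. Slc16a1, a lactate carrier, had 76, 4663 and 47 counts in the controls against 13037, 99 and 6370 at 8 h (log2 fold change 1.38 ± 2.13 SE, edgeR adjusted p = 0.889). Slc16a3, the lactate exporter of glycolytic cells, had 503, 11 and 333 counts in the controls against 396, 1585 and 450 at 8 h (0.92 ± 1.76 SE, edgeR adjusted p = 0.915). The glucose carriers Slc2a1 and Slc2a3, with 1 to 10 counts per library, were below the filter.

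All 4 tested regulators had negative log2 fold changes (median -1.42), against 4045 lower and 4263 higher over all tested. The groups overlapped for each of the 4, and edgeR and DESeq2 each called 0. Pfkfb3, which makes the activator of phosphofructokinase, had 39.3, 109.3 and 140.4 CPM in the controls against 41.9, 2.19 and 16.5 CPM at 8 h (log2 fold change -2.35 ± 1.83 SE, edgeR adjusted p = 0.738). Myc had 1175, 44 and 14667 counts in the controls against 2446, 358 and 144 at 8 h (-2.22 ± 2.09 SE, edgeR adjusted p = 0.788). Hif1a had 3, 1 and 5 counts in the controls against 1 in each 8 h library, too few for testing, and Tigar was not matched.

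Of 8 tested genes of pyruvate entry into mitochondria, 4 had higher and 4 lower values. Mpc1, a subunit of the mitochondrial pyruvate carrier, had 90, 33 and 2246 counts in the controls against 2888, 3684 and 1257 at 8 h, and in CPM each 8 h library lay above each control (201.3 to 338.3 against 7.23 to 182.6). Its log2 fold change was 1.81 ± 1.96 (SE, edgeR adjusted p = 0.825), and its partner Mpc2 had one of -1.79 ± 1.99 (SE, edgeR adjusted p = 0.829). Pdk1, a kinase that inhibits pyruvate dehydrogenase, had 3, 18 and 92 counts in the controls against 16, 10 and 18 at 8 h (-1.27 ± 1.38 SE, edgeR adjusted p = 0.826).

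In the pentose phosphate branch all 5 tested genes had negative log2 fold changes (median -1.08), against 4045 lower and 4263 higher over all tested. Neither edgeR nor DESeq2 called any of the 5. Groups did not overlap for 1 of the 5, against 10.9% of all tested accessions, so this count is no result about the branch. The gene was Pgls, the lactonase of this branch. It had 95.9, 48.0 and 78.8 CPM in the controls against 12.9, 7.75 and 44.8 CPM at 8 h. Each 8 h library thus lay below each control (log2 fold change -1.98 ± 1.79 SE, edgeR adjusted p = 0.777). G6pdx, the entry enzyme of this branch, had 3 to 18 counts and was not tested. Genes of gluconeogenesis split into 2 higher and 1 lower among 3 tested.

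**Figure D4:**
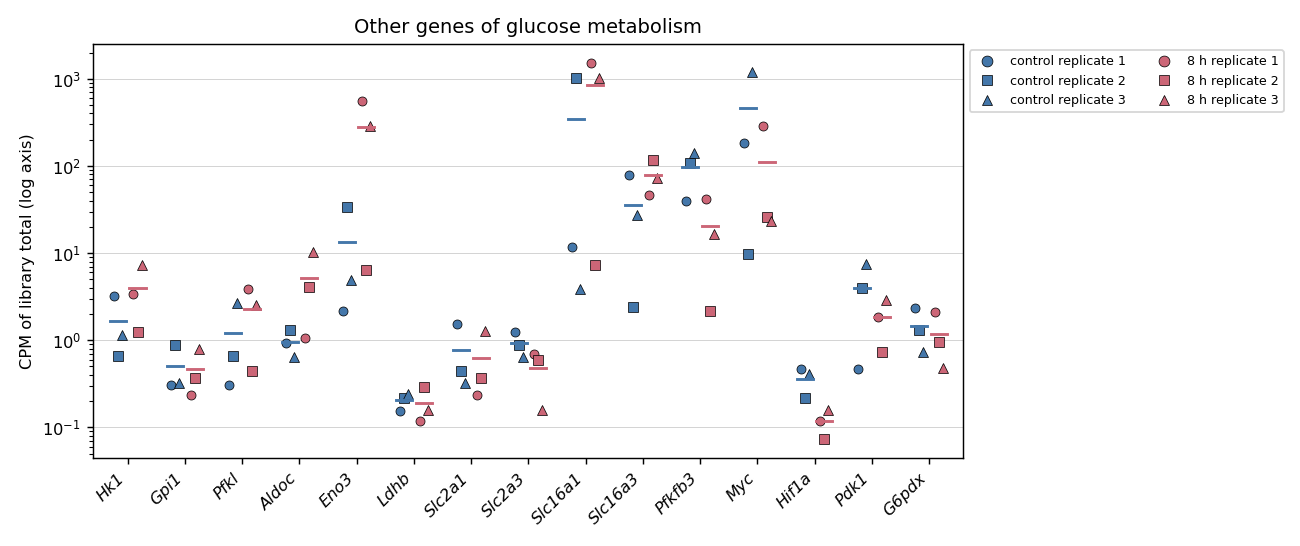
CPM on a log axis of 15 other genes of glucose metabolism, 1 point per library, with bars at the group means (n = 3 each). Gpi1, Ldhb, Slc2a1, Slc2a3 and Hif1a lie at 1.55 CPM or less in every library, and Slc16a1 spans 3.82 to 1021.7 CPM in the controls and 7.24 to 1527.1 CPM at 8 h.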

How the data were processed

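Total RNA of mouse CD4+ T cells was extracted with a PAXgene kit and sequenced from TruSeq libraries as 50-base single reads, per the series' design text and the labels' protocols. Whole-number counts per RefSeq accession were taken as deposited by the authors, in 1 table. Per the submitters' processing notes, Bowtie, R 3.4.2 and GRCm38 were used, with no role stated. The counting program, its use of strand, its treatment of reads with several matches and any row filter were not stated, so reads of isozymes, pseudogenes and overlapping genes may be shared. Columns were matched to samples by title.

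Accessions were named through RefSeq (12824) or GENCODE M21 (50), and 303 stayed unnamed. Transcript lengths and 3' UTRs came from GENCODE M21.

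Groups were compared over all accessions with edgeR 4.0.16 in R 4.3.3: TMM scaling, filterByExpr (8308 kept), the quasi-likelihood F test in its legacy robust form, two-sided, Benjamini-Hochberg adjustment at 0.05. The SE was derived from F, by dividing the size of the log2 fold change by its root. CPM use library totals. The exact permutation test used scipy 1.17.1. The script was tested on simulated data. DESeq2 1.42.0 and other settings were alternatives.

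The members and lists were chosen with earlier results of these data known. Named genes were the 10 members, any other listed gene past the threshold, 16 preset genes and the 3 accessions most like the most abundant member, of which 1 is not reported here. Mpc1, Mpc2, Pgls, Gzma, Gzmb, Nkg7, Pf4 and Ms4a1 were named after their values were seen. Gene lists covered isozymes, transport, regulators, pyruvate entry, pentose phosphate, gluconeogenesis and markers of 6 cell types. Summed CPM overlapped between the groups for CD4 T cell, CD8 T cell, B cell and myeloid markers.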

Additional observations from a re-analysis of the deposited data

How the results depend on the processing

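No gene was called between the groups (0 genes) under RLE, upper-quartile or no scaling beyond library totals, with no filter or a mean of at least 5 CPM, in the newer quasi-likelihood form, with the replicate block, and without each library (0 to 0). DESeq2 called 399 genes and 1 of the 10 enzymes, Ldha, whereas every other setting called 0 of them (0 to 0 without each library). A test that calls 0 genes says nothing about stability. Among single enzymes, the sign of Pgk1 turned with RLE scaling (-0.011), upper-quartile scaling (-0.038), DESeq2 (-0.0052) and the replicate block (-0.003), and its log2 fold change ran from -0.34 to 0.38 over 5 fits without 1 library. Without 8 h replicate 2, its highest library, Pgk1 did not pass the filter and has no value, nor have Tpi1 and Pgk1 with a mean of at least 5 CPM. Without each library the log2 fold changes of Tpi1 ran from -0.17 to 1.14, of Pgam1 from -4.49 to 1.41 and of Eno1 from -0.074 to 3.60. The cause was not tested. Hk2, Pkm and Ldha kept their sign in all settings run. Library totals without TMM moved the median log2 fold change of all tested genes from 0.06 to 0.16, and Eno1 to 0.83. The difference in the summed share of the enzymes ran from -0.928 to 0.19 percentage points without each library and was -0.626 with TMM-scaled library sizes. Same-numbered libraries had residual correlations of -0.0107, 0.0151 and -0.0039. Replicates within a group differed widely, which could hide a shared origin, so these values cannot decide whether same-numbered libraries were paired. With the replicate block, Ldha had a log2 fold change of -7.18. Low counts limit Tpi1, Pgk1, Pfkp, Aldoa and Gapdh.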
